A study of Homo sapiens with 6 samples.

Results

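Pyruvate, the end product of glycolysis, has 2 main fates in a cell, and the genes described here act where they part. Lactate dehydrogenase converts pyruvate to lactate and back, the monocarboxylate transporters carry lactate and pyruvate across the plasma membrane, and the pyruvate dehydrogenase complex commits pyruvate to the mitochondrial citric acid cycle. Pyruvate dehydrogenase kinases switch the complex off by phosphorylating its E1 alpha subunit, and pyruvate dehydrogenase phosphatases switch it on again. Hypoxia-inducible factor 1 (HIF1) is known to raise LDHA, PDK1 and SLC16A3 when oxygen is low, which turns tumor cells toward lactate. The set held 10 genes, chosen by symbol for these roles: Ldha, Ldhb, Slc16a1, Slc16a3, Pdk1, Pdk2, Pdk3, Pdk4, Pdp1 and Pdha1. All 10 were found among the 22989 genes of the count table.

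The study asked which genes respond to loss of LINC00115, a long non-coding RNA, in paclitaxel (PTX)-resistant breast cancer stem cells (BCSC) of MDA-MB-231, a human triple-negative breast cancer line. RNA was sequenced from 3 libraries labelled LINC00115 KD, from cells with a short hairpin RNA against LINC00115, and 3 libraries labelled WT. The paper's knockdown experiments used a control hairpin, and whether the WT libraries carried it is not given in the sources used here. Both groups share the cell line, the PTX resistance and the sort for high aldehyde dehydrogenase activity. The titles number the KD libraries as replicates, whereas their descriptions are sh115-1, sh115-2 and sh115-3. The paper names a single hairpin, sh115-2, for its expression comparison, while the descriptions carry a different number for each library, so the sources differ on whether the libraries share a hairpin. Nothing in the labels says that the libraries of a group came from separate cultures. The p-values thus measure the spread between these libraries, which may be technical. With 0 rows named LINC00115, the knockdown itself could not be checked in the counts.

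The libraries held 36979221 to 38799331 counts. Between libraries of 1 group the chi-square of the counts was 3.88 to 7.60 per degree of freedom, where sampling noise alone gives about 1, and none was counted as a duplicate. The gene symbols are those of a mouse annotation, with 4648 Gm names and 1135 Rik names, and only 16 of 22989 equal a human symbol as written. Neither the labels nor the paper explains this, and whether the counts come from the labelled human cells could not be settled from the files. Every value below therefore describes the libraries as labelled, with symbols as the table gives them. Among markers of the labelled cells, Vim lay between 3368 and 3792 and Cd44 between 872 and 963 normalized CPM, the usual CPM of a gene computed on a library total scaled by edgeR's TMM method. Of the 3 receptors that triple-negative tumors lack, Pgr was at most 0.0796 normalized CPM, Esr1 lay between 0.635 and 0.770 in WT and between 2.23 and 2.74 in KD, and Erbb2 between 15.7 and 18.3 in WT and between 27.1 and 28.1 in KD. The epithelial keratins Krt8 (469 to 479 in WT, 726 to 766 in KD) and Krt18 (129 to 130 in WT, 231 to 242 in KD) were abundant, whereas Epcam was at most 0.132 normalized CPM. Of the aldehyde dehydrogenases, Aldh1a1 lay between 0.212 and 1.34 and Aldh1a3 was at most 0.105 normalized CPM. The sort used enzyme activity, which RNA does not measure.

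Of the 10 members, 8 passed the low-count filter and were tested with edgeR. With both thresholds applied (adjusted p under 0.05, change over 2-fold), Pdk1 and Pdk3 were called lower in LINC00115 KD and Ldhb was called higher. Among all 13497 genes tested, 9.98% were called lower and 10.2% higher by the same rule. With the p-value alone, 4 members were lower (Ldha, Pdk1, Pdk3 and Pdp1) and 3 were higher (Ldhb, Slc16a1 and Pdha1), against 36.7% of all genes in each direction. The same 7 members had no overlap between the 3 KD and the 3 WT libraries, as had 37.8% of all genes in each direction. Changes of this kind were thus common in the table, and Ldhb passed the filter only through the KD libraries, so that it had to differ.

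**Figure D1:**
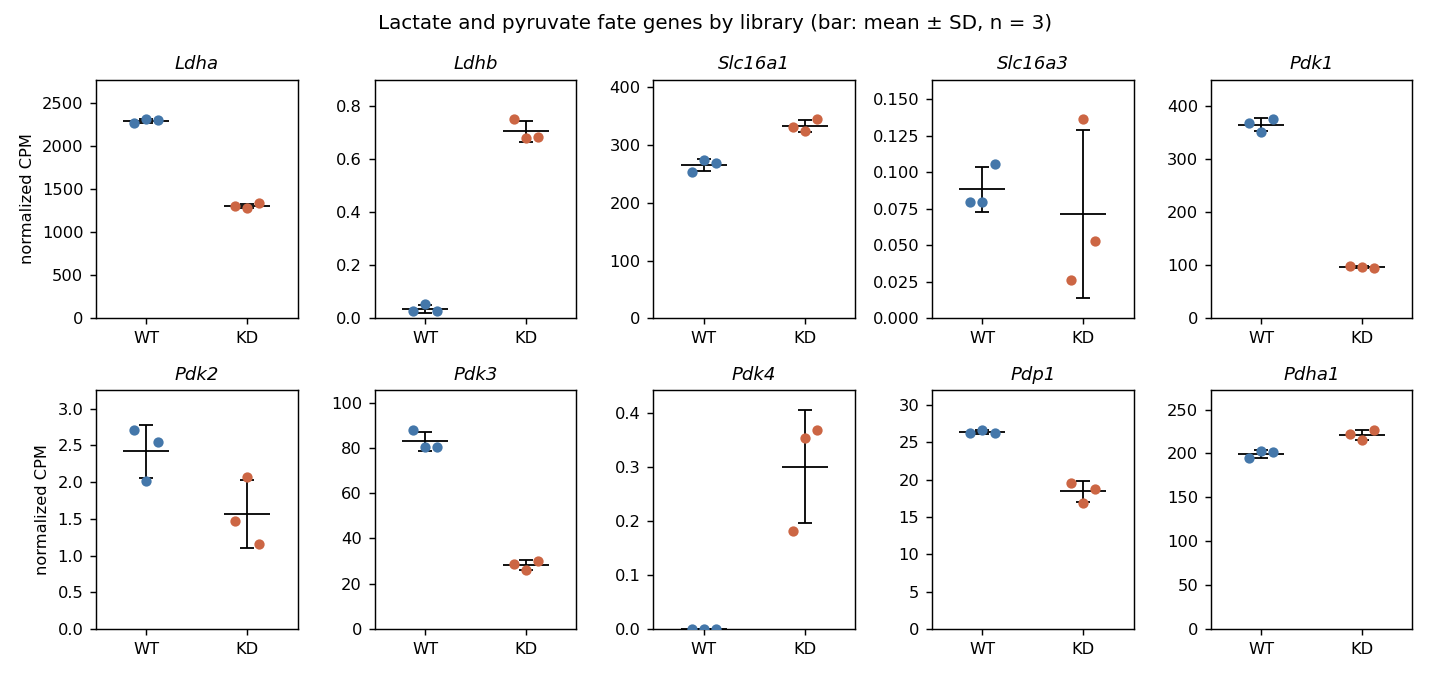
Normalized CPM (vertical axis, linear from 0, a separate scale for each gene) of the 10 members in the 3 WT and the 3 KD libraries; points are libraries and bars are the mean ± SD. The KD libraries lie below all WT libraries for Ldha, Pdk1, Pdk3 and Pdp1 and above them for Slc16a1, Pdha1, Ldhb and Pdk4, the last pair at under 1 normalized CPM.

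For the members that fell most, the promoter of the human gene of the same symbol is shown, because these genes are known targets of HIF1, whose pathway the study follows. Sequences are those of RefSeq on GRCh38.p14, which listed 8 of the 10 members. Each window covers 250 bases before to 50 bases after a transcript start. Capitals mark ACGTG or its complement CACGT, 1 form of the core letters bound by HIF1, searched on both strands with overlapping matches counted as 1. The form GCGTG or CACGC was not searched, so a window without a match can still hold core letters. These are human promoters set beside counts listed under mouse-style symbols, and a match is a description, not a binding site.

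LDHA, chr11:18394313-18394612, plus strand: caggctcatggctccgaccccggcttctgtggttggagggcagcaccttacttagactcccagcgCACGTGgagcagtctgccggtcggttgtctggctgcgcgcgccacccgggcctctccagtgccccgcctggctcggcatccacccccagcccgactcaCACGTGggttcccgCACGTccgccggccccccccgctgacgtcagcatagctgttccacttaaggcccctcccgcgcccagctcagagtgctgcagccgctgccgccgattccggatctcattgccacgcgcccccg

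PDK1, chr2:172555840-172556139, plus strand: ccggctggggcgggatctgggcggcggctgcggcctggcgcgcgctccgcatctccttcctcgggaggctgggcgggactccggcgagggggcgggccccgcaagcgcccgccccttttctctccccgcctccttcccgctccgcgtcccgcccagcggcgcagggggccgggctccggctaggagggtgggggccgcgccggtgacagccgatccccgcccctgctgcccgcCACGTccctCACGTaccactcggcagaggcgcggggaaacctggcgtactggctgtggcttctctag

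PDK3, chrX:24465036-24465335, plus strand: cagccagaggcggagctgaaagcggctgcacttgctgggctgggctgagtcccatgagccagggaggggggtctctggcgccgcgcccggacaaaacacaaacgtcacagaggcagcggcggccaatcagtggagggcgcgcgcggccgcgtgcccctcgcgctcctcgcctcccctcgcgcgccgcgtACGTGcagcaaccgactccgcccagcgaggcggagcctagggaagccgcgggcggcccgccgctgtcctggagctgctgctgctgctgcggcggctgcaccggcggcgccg

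The LDHA window held 3 matches, the PDK1 window 2 and the PDK3 window 1. Of all 35116 promoter windows, 21.4% held at least 1 match, 3.34% at least 2 and 0.461% at least 3. A second window of LDHA and a second window of PDK1 held 0 matches. Among the other members listed, the windows of LDHB, PDK4 and PDHA1 held 0 matches, 1 of the 5 windows of SLC16A3 held 2, and 1 of the 3 windows of PDK2 held 1.

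Ldha encodes the subunit of lactate dehydrogenase that favours the making of lactate from pyruvate. It had 85446, 87232 and 87116 counts in the WT libraries and 50265, 47059 and 50732 in the KD libraries, so that every KD library lay below every WT library. On the scale of normalized CPM the level was 2295 ± 23.3 in WT and 1306 ± 27.5 in KD (SD, n = 3 each). The KD level was 56.9% of WT (95% interval 54.7% to 59.2%), a log2 fold change of −0.81 (standard error, SE, 0.03, adjusted p = 1.32e-23 by edgeR). The difference was many times the spread between replicates but did not reach a fold change of 2, so Ldha was not called lower. Only 14.1% of the genes tested had a lower log2 fold change.

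LDHA is also the member that the study followed by quantitative RT-PCR and by western blot. The paper reports that LDHA mRNA and protein fell after LINC00115 knockdown and largely recovered when HIF1α was expressed again. The primers are shown because they give the stretch of the human transcript that the RT-PCR assay reads.

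LDHA forward primer: ggtccttggggaacatggag

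LDHA reverse primer: tagcccaggatgtgtagcct

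In the human annotation of GRCh37 the forward primer matches chromosome 11 from 18424532 to 18424551 in exon 5 and the reverse primer the opposite strand from 18427020 to 18427039 in exon 7. Both lie in coding exons, and the product is 191 bases long on the spliced transcript used for the positions. Of 23 annotated LDHA transcripts, 9 held both primers. No mouse sequence was searched.

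Ldhb encodes the other main subunit, which favours the conversion of lactate to pyruvate. It was close to undetected: 1, 2 and 1 counts in the WT libraries and 29, 25 and 26 in the KD libraries. The KD libraries did not overlap with WT, but 0.705 ± 0.0387 normalized CPM (SD, n = 3) is a very low level. Over the summed counts, 80 in KD and 4 in WT, the ratio was 20.0 (95% exact interval 7.50 to 75.1, which covers counting error only). The gene was called higher (adjusted p = 4.30e-06 by edgeR).

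Most markers of lung and kidney were also higher in the KD libraries, and the lists of other tissues were mixed. Of the 10 markers of the labelled cells given above, 6 were higher in every KD library and 0 lower. The summed level of 10 lung markers was 1.59 to 1.98 normalized CPM in the WT libraries and 74.5 to 86.2 in the KD libraries, with 10 of 10 higher in every KD library and 6, among them Scgb1a1 and Sftpc, at 0 in every WT library. For 10 kidney markers the sums were 17.7 to 20.6 in WT and 47.5 to 53.0 in KD, with 9 higher, 1 lower, and Kap, Umod, Slc22a6 and Miox at 0 in every WT library. The 10 leukocyte markers summed to 35.0 to 35.8 and 99.7 to 111 normalized CPM, with 4 higher and 1 lower and Cd3e at 0 in all libraries. The 6 adipocyte markers found (13.8 to 17.2 and 45.5 to 47.5) and the 8 liver markers (15.6 to 16.7 and 44.3 to 48.4) had 1 and 2 members higher in every KD library, and Adipoq and Alb were near 0 in both groups. Single genes made most of these last sums: S100a8 (32.2 to 34.4 in WT, 87.9 to 99.0 in KD) for leukocytes, Fabp4 (15.4 ± 1.68 in WT and 45.9 ± 1.18 in KD, SD, n = 3 each) for adipocytes and Ass1 (15.3 to 16.7 and 44.3 to 48.1) for liver. Heart and skeletal muscle markers, 10 in number, summed to 13.5 to 14.7 in WT and 13.8 to 16.0 in KD, with 3 higher, while Myh7 and Ckm were near 0. In the leukocyte, adipocyte, liver and muscle lists, the markers higher in every KD library were near or below the share of all genes. The part of such tissues in the Ldhb counts was not tested, and in bulk RNA a change in the cells present cannot be told apart from a change in RNA per cell.

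The monocarboxylate transporters were represented by Slc16a1 (MCT1), which carries lactate in or out with a proton, and Slc16a3 (MCT4), the exporter of strongly glycolytic cells. Slc16a1 had 9552, 10362 and 10139 counts in WT and 12813, 11895 and 13084 in KD. All KD libraries lay above all WT libraries, at 333 ± 10.4 against 265 ± 10.8 normalized CPM (SD, n = 3 each). The rise was 1.26-fold (95% interval 1.19 to 1.32), a log2 fold change of 0.33 (SE 0.04, adjusted p = 5.11e-10 by edgeR), and 30.3% of the genes tested had a higher one.

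Slc16a3 was nearly undetected in both groups, with 3, 3 and 4 counts in WT and 1, 5 and 2 counts in KD. The groups overlapped, the gene did not pass the filter, and at this depth no difference could be detected. The summed counts, 8 against 10, gave a ratio of 0.799 with an exact 95% interval of 0.274 to 2.25. MDA-MB-231 is known for abundant MCT4 and little MCT1 (background, not measured here). In this table every library of either group held at least 9552 counts of Slc16a1 and at most 5 of Slc16a3, counts that are not corrected for gene length.

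The pyruvate dehydrogenase kinases inactivate the pyruvate dehydrogenase complex and thereby hold pyruvate back from the mitochondria. Summed over the 4 kinase genes, the counts were 17296, 16375 and 17305 in the WT libraries and 5011, 4573 and 4787 in the KD libraries. Most of these counts came from Pdk1, 80.3% to 81.9% in WT and 75.1% to 77.2% in KD, and most of the rest from Pdk3, 17.5% to 19.1% and 20.8% to 23.7%. These shares are of counts, which are not corrected for gene length.

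Pdk1, the kinase best known as a HIF1 target, had 13882, 13256 and 14174 counts in WT and 3828, 3531 and 3594 in KD. The groups were far apart, and the KD level was 26.5% of WT (95% interval 25.1% to 27.9%). With a log2 fold change of −1.92 (SE 0.04, adjusted p = 1.08e-30 by edgeR), Pdk1 had the largest decrease of the members tested, and 3.23% of all genes tested had a lower value.

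Pdk3, an isoform with little sensitivity to inhibition by pyruvate, had 3312, 3043 and 3035 counts in WT and 1119, 953 and 1135 in KD, again without overlap. Its level was 82.9 ± 4.30 normalized CPM in WT and 28.3 ± 2.05 in KD (SD, n = 3 each), a fold change of 0.341 (95% interval 0.314 to 0.370). The log2 fold change was −1.55 (SE 0.06, adjusted p = 2.67e-22 by edgeR), and 5.10% of the genes tested had a lower one.

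Pdk2, the most widely expressed isoform in normal tissues, had 102, 76 and 96 counts in WT and 57, 76 and 44 in KD. The groups overlapped, since KD replicate 2 had as many counts as WT replicate 2. The log2 fold change was −0.63 with a 95% interval of −1.22 to −0.038, and the adjusted p of 0.0512 by edgeR was just above the threshold. The call rested on single libraries: the adjusted p was 0.0371 without WT replicate 2, 0.0180 without KD replicate 2 and 0.196 without KD replicate 3 (log2 fold changes −0.74, −0.87 and −0.44).

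Pdk4, the isoform induced by fasting and fatty acids, had 0 counts in each WT library and 7, 13 and 14 in the KD libraries. The difference was at least 3.79-fold against a limit of 3 counts per library, at 0.301 ± 0.104 normalized CPM in KD (SD, n = 3). Pdk4 did not pass the filter. Without a filter it was called higher by edgeR (adjusted p = 0.000161) and by DESeq2 (adjusted p = 0.000319). It also entered the filtered fits that omitted 1 WT library or KD replicate 1, but only through its KD counts, so those calls add nothing. Most of the lung and kidney markers given above moved in the same direction as these few counts, and their part was not tested.

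**Figure D2:**
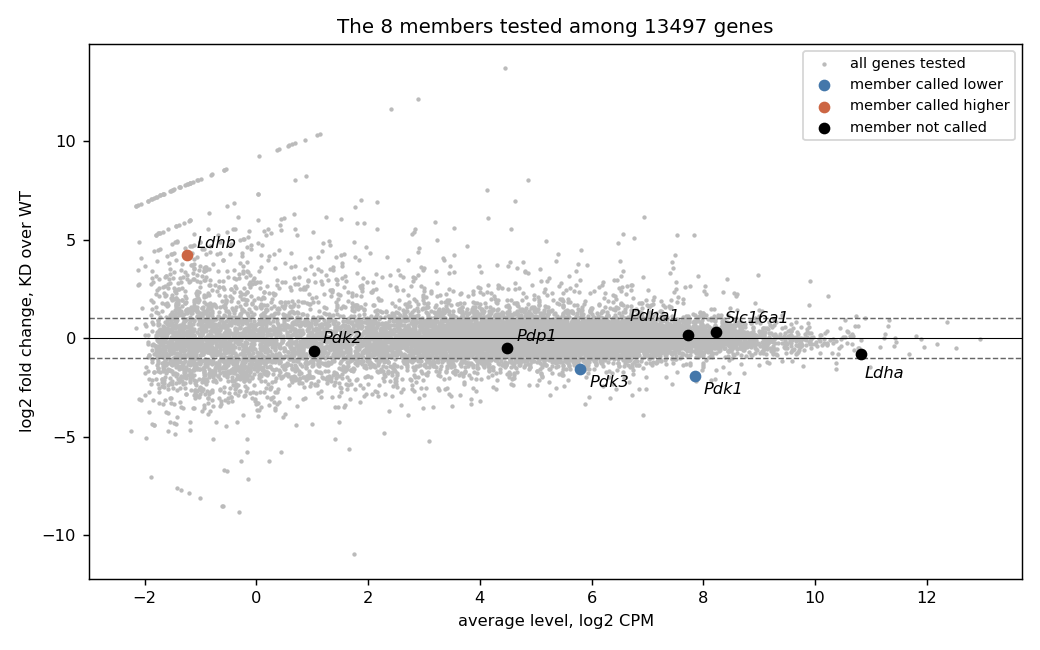
Log2 fold change of KD over WT against the average level (log2 CPM) for the 13497 genes tested (grey) and the 8 members among them; dashed lines mark a fold change of 2. Pdk1 and Pdk3 lie below the lower line, Ldha lies between the lines at the high end of the levels, and Ldhb lies above the upper line at the low end, where genes at 0 in a group form the streaks of points.

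Pdp1 encodes the catalytic subunit of a phosphatase that reverses the work of the kinases. It had 987, 1005 and 994 counts in WT and 757, 621 and 713 in KD, all below WT. The KD level was 69.9% of WT (95% interval 62.5% to 78.1%), a log2 fold change of −0.52 (SE 0.08, adjusted p = 4.60e-07 by edgeR), without reaching a fold change of 2. The transcripts of this phosphatase and of the kinases Pdk1 and Pdk3 thus all fell.

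Pdha1 encodes the E1 alpha subunit that the kinases phosphorylate. It had 7324, 7662 and 7601 counts in WT and 8608, 7887 and 8601 in KD. The groups did not overlap, but the difference was small, 1.11-fold higher in KD (95% interval 1.05 to 1.17, adjusted p = 0.000447 by edgeR). A higher log2 fold change was found for 40.5% of the genes tested. The transcript for the substrate of the kinases was thus not lower where Pdk1 and Pdk3 were.

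Ratios of 2 members within a library do not depend on how libraries are scaled, and gene length cancels when groups are compared. Each of 6 ratios was compared by a two-sided exact permutation test over libraries, in which 3 against 3 allows no p below 0.1. The Ldha/Pdha1 ratio was between 11.4 and 11.7 in WT and between 5.84 and 5.97 in KD, a difference of −0.96 on the log2 scale with SDs of 0.0182 and 0.0156 (n = 3 each). The Pdk1/Pdp1 ratio was between 13.2 and 14.3 in WT and between 5.04 and 5.69 in KD, a log2 difference of −1.40. The Pdk1/Pdk3 ratio was between 4.19 and 4.67 in WT and between 3.17 and 3.71 in KD, a log2 difference of −0.36, yet without overlap.

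The log2 difference was −1.27 for Pdk1/Pdk2 and −4.74 for Ldha/Ldhb, the last on 1 or 2 counts of Ldhb in each WT library. These 5 ratios had no overlap between the groups and an exact permutation p of 0.1, the smallest possible (adjusted over the 6 ratios 0.12). Single genes often had no overlap either, 37.8% of all genes tested in each direction, and the share over all pairs of genes was not computed. For Slc16a3/Slc16a1 the groups overlapped (log2 difference −0.80, exact permutation p = 0.4), on at most 5 counts of Slc16a3.

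**Figure D3:**
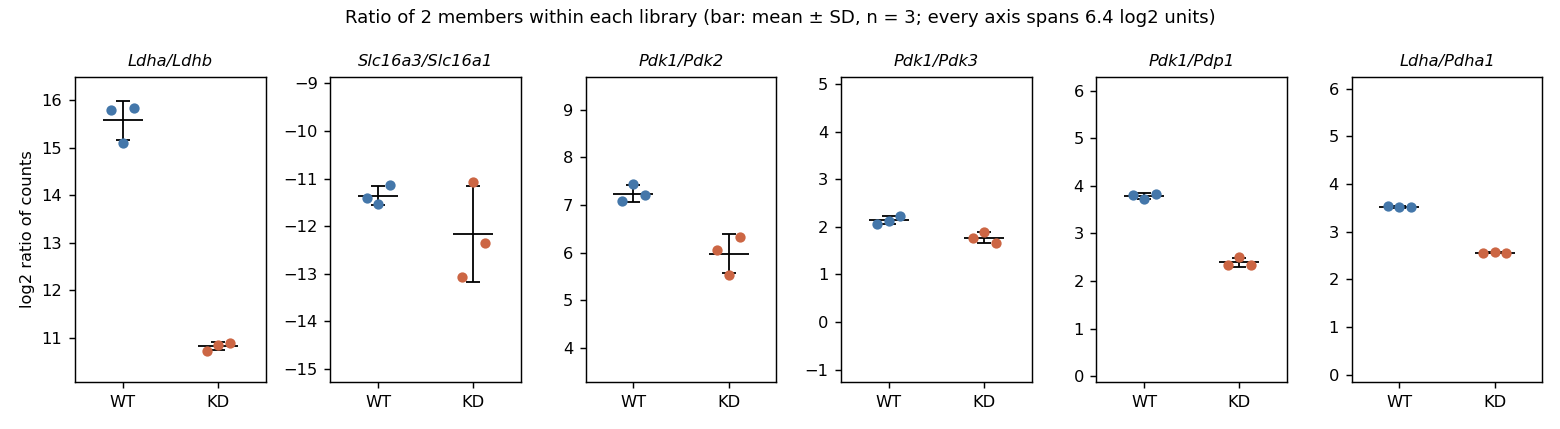
Log2 ratio of the counts of 2 members in each WT and KD library (vertical axis; 0.5 counts added to each; all panels span the same number of log2 units), with the mean ± SD. The ratios Ldha/Ldhb, Pdk1/Pdk2, Pdk1/Pdk3, Pdk1/Pdp1 and Ldha/Pdha1 are lower in all KD libraries than in all WT libraries, and the Slc16a3/Slc16a1 values overlap.

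Other genes of the pathway were taken from 4 lists with 49 genes, of which 38 passed the filter. In the list of other lactate dehydrogenases, lactate transporters and partners, 6 of 12 genes were tested, of which 1 was called lower and 1 higher (median log2 fold change 0.20, against −0.0061 for all genes tested). Over all genes tested, 9.98% were called lower and 10.2% higher. Bsg, the basigin chaperone that brings MCT1 and MCT4 to the plasma membrane, was lower in KD, at 416 ± 16.9 against 936 ± 37.2 normalized CPM (SD, n = 3 each), with a log2 fold change of −1.17 (SE 0.03, adjusted p = 1.44e-25 by edgeR). It thus moved opposite to Slc16a1, whose product it escorts. Slc5a8, a sodium-coupled carrier of monocarboxylates, was called higher on few counts, 5, 5 and 0 in WT and 16, 44 and 21 in KD. It passed the filter only through the KD libraries, so the direction of its call was fixed. Glo1, which with Hagh turns methylglyoxal into D-lactate, fell without being called (log2 fold change −0.50), Ldhd, the D-lactate dehydrogenase, rose without being called (0.81), and Hagh (0.016) and Ldhal6b (0.38) did not pass the test.

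Partners of the transporters with hardly any counts were not tested. Emb, the embigin chaperone, had 0, 1 and 1 counts in WT and 5, 30 and 6 in KD. Slc16a7 (MCT2) had 0 in each WT library and 7, 5 and 2 in KD, Slc5a12 had 0 and then 9, 16 and 5, and Slc16a8 (MCT3) had at most 3 counts in any library. Ldhc and Hcar1 were not found under these symbols.

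In the list of other pyruvate dehydrogenase complex and pyruvate import genes, 11 of 12 were tested, 0 were called in either direction, and 7 rose and 0 fell at an adjusted p under 0.05, a threshold that 36.7% of all genes tested passed in each direction. The median log2 fold change was 0.22 and the values ran from 0.03 to 0.85. Dlat, the E2 core of the complex, rose from 102 ± 6.09 to 136 ± 2.24 normalized CPM (log2 fold change 0.42, SE 0.04). Pdhx, the protein that anchors E3 to the core (0.24), Dld, the E3 subunit shared with other complexes (0.11), and Pdpr, a regulator of the phosphatase (0.22), also rose by small amounts.

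Pdp2, the other phosphatase, rose (log2 fold change 0.64, adjusted p = 3.66e-05, edgeR) where Pdp1 fell. Lipt1 (0.64) and Lipt2 (0.85), which act in attaching lipoic acid to the complex, rose as well. Pdhb, the E1 beta subunit (0.03), Lias, the lipoic acid synthase (0.07), and the mitochondrial pyruvate carrier subunits Mpc1 (0.08) and Mpc2 (0.09) did not pass the test, with adjusted p between 0.371 and 0.574 (edgeR). Pdha2 was not found under this symbol.

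In the list of other enzymes that make or use pyruvate, 10 of 12 genes were tested, of which 1 was called lower and 1 higher, and 3 fell and 4 rose at an adjusted p under 0.05 (median log2 fold change 0.03, also with Pck1 set to its lower bound). Over all genes tested, 9.98% were called lower and 10.2% higher, and 36.7% passed that p threshold in each direction. Pkm, the pyruvate kinase that supplies pyruvate, fell from 4137 ± 11.4 to 2412 ± 43.3 normalized CPM, a log2 fold change of −0.78 (SE 0.03), close to that of Ldha. The malic enzymes, which make pyruvate from malate, also fell: Me2, mitochondrial, was called lower (log2 fold change −1.06) and Me1, cytosolic, was lower without being called (−0.56). The value for Me3, 0.25, did not pass the test.

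Gpt2, the mitochondrial alanine transaminase, rose (0.48), while the log2 fold changes of Gpt (−0.19) and of the carboxylase gene Pcx (−0.13) did not pass the test. Pck2 (0.36) and Mpst (0.19) rose by small amounts. Pck1, a gluconeogenic enzyme abundant in kidney and liver, had 0 counts in each WT library and 78, 120 and 130 in KD, at least 36.5-fold higher against 3 counts per library. It passed the filter only through the KD libraries, so that its call as higher had to follow, and it stands beside the kidney markers given above, whose part was not tested. Pklr had at most 1 count in a library and Sdsl at most 7.

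Among 13 known regulators of the members, 11 were tested, with 2 called lower, 1 called higher, and 5 in each direction at an adjusted p under 0.05 (median log2 fold change −0.06). Over all genes tested, 9.98% were called lower and 10.2% higher, and 36.7% passed that p threshold in each direction. Hif1a was higher in KD, at 334 ± 1.68 against 254 ± 5.94 normalized CPM (SD, n = 3 each), for a log2 fold change of 0.40 (SE 0.03, adjusted p = 1.11e-12 by edgeR). Its partner Arnt was slightly lower (−0.21). The transcript of the HIF1 alpha subunit therefore rose while Ldha and Pdk1 fell. The counts say nothing of the protein, which is controlled mainly by its breakdown. The paper reports that HIF1α protein fell and was degraded faster after LINC00115 knockdown.

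Myc, a factor that also raises LDHA, was higher (log2 fold change 0.92, SE 0.04, adjusted p = 7.03e-22, edgeR) where Ldha was lower. Foxo3, a forkhead factor tied to Pdk4, was called lower (−1.24), as was Pparg on few counts (31, 21 and 33 in WT against 6, 8 and 0 in KD), and Foxo1 (−0.56) and Ppard (−0.36) fell without being called. Epas1, the HIF2 alpha subunit, was called higher, with 0, 0 and 3 counts in WT and 85, 57 and 74 in KD, a ratio of 71.9 over summed counts (95% exact interval 24.3 to 351). Epas1 passed the filter only through the KD libraries and Pparg only through the WT libraries, which fixed the direction of their calls, and the part of the lung and kidney markers given above in the Epas1 counts was not tested. Sirt3 (0.32) and Ptpmt1 (0.21) rose without being called, Esrra (−0.06) did not pass the test, and Ppara and Ppargc1a had at most 6 and 2 counts in any library.

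**Figure D4:**
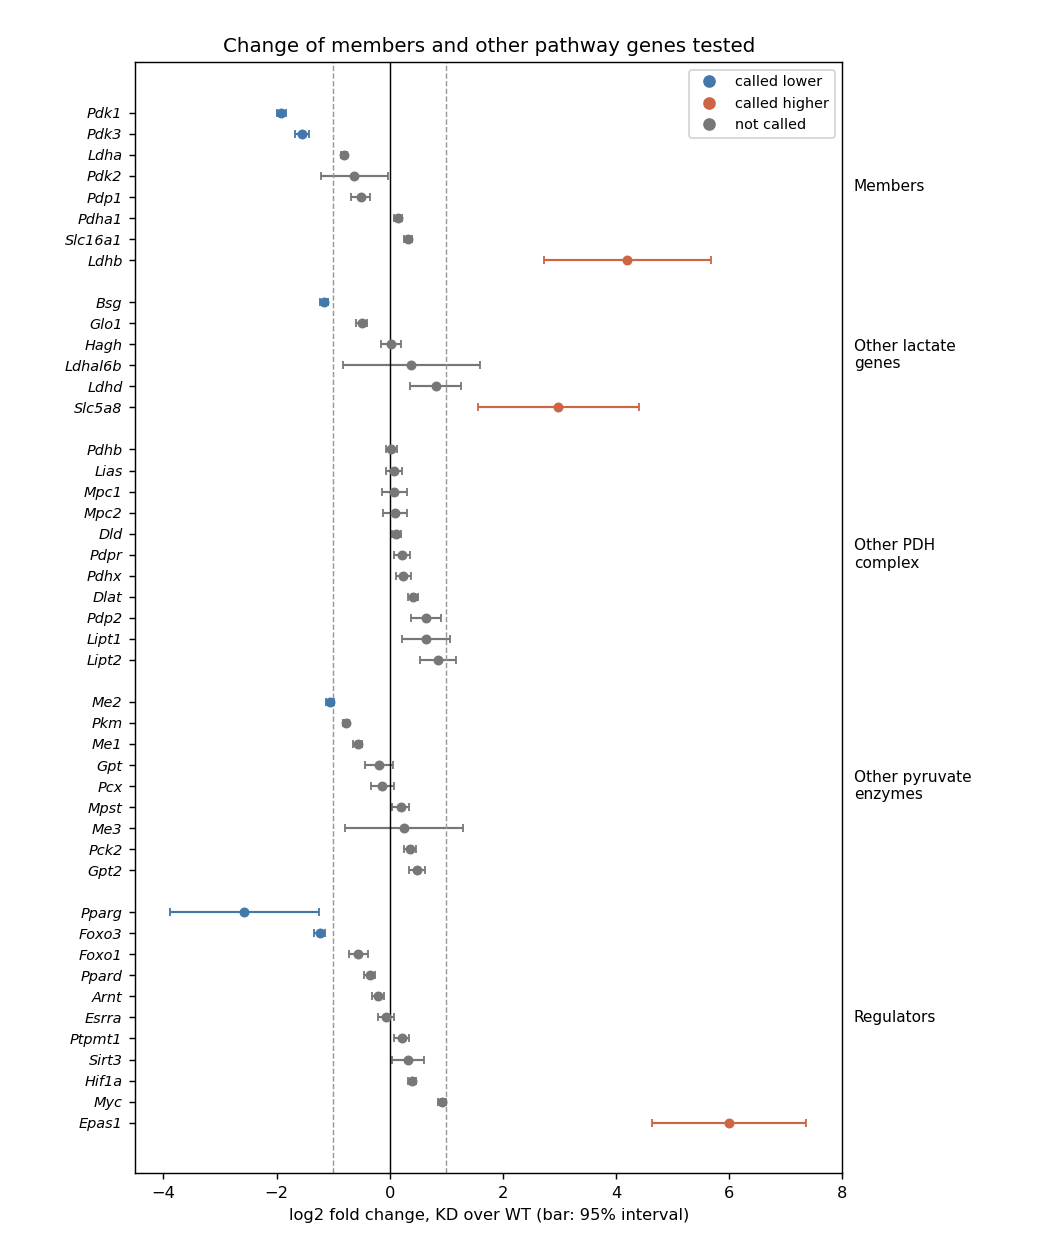
Log2 fold change of KD over WT (horizontal axis) with its 95% interval for the 8 members tested and for the other pathway genes and regulators tested, by list; colours mark genes called lower, called higher or not called, and dashed lines mark a fold change of 2. Pck1, at 0 in every WT library, is left out because its fitted value is no bound. The pyruvate dehydrogenase complex genes all lie at or to the right of 0, while Pdk1, Pdk3, Bsg, Me2, Pparg and Foxo3 are the genes called lower.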

How the data were processed

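RNA-seq of 6 libraries was analysed, 3 labelled LINC00115 KD and 3 labelled WT. The authors deposited raw counts, whole numbers that are not normalized, for 22989 genes. Per the paper's methods, adapters were trimmed and reads mapped with HISAT2 to hg19, whereas the submitters' processing notes list hg38, HISAT2, featureCounts and DESeq2. The annotation, the use of strand and the treatment of reads shared by near-identical copies are not given in the sources used here, so counts of genes with close copies, such as Ldha, are uncertain to that extent. Symbols are in mouse style, and no mouse genome or gene length was used, so counts set side by side for different genes are not corrected for length.

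The test was that of edgeR 4.0.16 run in R 4.3.3 (filterByExpr with minimum count 10 and minimum total 15, TMM, quasi-likelihood test, model with the group only, Benjamini-Hochberg over 13497 genes). Calls needed an adjusted p under 0.05 together with a change over 2-fold, the thresholds of the paper's methods. Standard errors are |log2 fold change|/√F. Ratios of members used counts plus 0.5. Intervals of fold changes were computed from the standard errors and the t distribution with the degrees of freedom of the edgeR test. They are approximate, above all for genes with few counts, and include the spread between libraries. The exact intervals over summed counts and the limit of 3 counts cover counting error only. The script was tested on simulated counts with 200 genes changed, drawn only from well-counted genes. That test does not cover changes in genes with few counts.

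Named are the 10 members, every gene of the 4 other lists past both thresholds, other genes of those lists where their role is described, and the 3 genes most correlated with Pdk1 and with Ldha. The members and lists were chosen with earlier results of these data known. Alternatives were other scalings, filters, DESeq2 1.42.0, each library left out, the replicate number as a block, no fold-change threshold and other pseudocounts. Columns of values not used number 0.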

Additional observations from a re-analysis of the deposited data

How the results depend on the processing

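Of 297 values recomputed under the alternatives, 267 were counted as unchanged, and no direction reversed. A fold change had to keep its direction and its side of the adjusted p threshold, and a count of genes to stay within 1.5 times. A ratio of members had to keep its direction only, with no threshold checked. The log2 fold changes ranged from −0.85 to −0.79 for Ldha, −1.96 to −1.90 for Pdk1, −1.59 to −1.49 for Pdk3, −0.56 to −0.45 for Pdp1, 0.29 to 0.36 for Slc16a1 and 0.11 to 0.18 for Pdha1. Each of these passed an adjusted p of 0.05 in every fit (edgeR or DESeq2). Ldhb ranged from 4.04 to 4.57 in the fits that tested it. The filtered fits admitted Ldhb only through its KD counts, so its passing in them adds nothing. Pdk2 passed with upper quartile scaling (−0.67), with library size only (−0.65), with at least 10 counts in every library (−0.63) and without WT replicate 2 or KD replicate 2, and ranged from −0.87 to −0.44 when libraries were left out. The 2 members called lower became 4 without the fold-change threshold. The 1 member called higher became 3 without that threshold, 2 without a filter and with DESeq2, where Pdk4 joined Ldhb, 0 with at least 10 counts in every library, which removes Ldhb, and 1 to 2 with libraries left out (2 without any 1 of the WT libraries or without KD replicate 1, where the filter admitted Pdk4).

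Without the fold-change threshold, the other lactate genes had 2 lower and 2 higher, the complex genes 7 higher, the pyruvate enzymes 3 lower and 4 higher and the regulators 5 lower and 5 higher. Of all genes tested, 36.7% then passed in each direction. Without a filter and with DESeq2, 4 lactate genes (with Slc16a7, Slc5a12 and Emb) and 2 regulators (with Ppara) were called higher. With at least 10 counts in every library, 0 lactate genes, 0 pyruvate enzymes and 0 regulators were called higher and 1 regulator lower, since genes near 0 in a group were removed. Leaving out libraries moved the complex genes called higher between 0 and 1, with Lipt2 called without KD replicate 2 (1.01). The replicate number as a block gave −1.92 for Pdk1, and the replicate block changed no call of a member. Deviations of same-numbered libraries correlated at 0.0439, −0.00639 and −0.0167, and those of differently numbered libraries at −0.0316 to 0.0381. These values show no pairing by number, but with 3 libraries per group they cannot exclude it. The Slc16a3/Slc16a1 difference ranged from −1.35 to −0.35 and that of Ldha/Ldhb from −5.21 with 0 counts added to −3.14 with 5. Depth limits Ldhb, Slc16a3 and Pdk4, the members with few counts.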

Other observations

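Outside the members, the genes whose log2 normalized CPM followed Pdk1 most closely over the 6 libraries were Pclaf (Pearson r = 0.9997), Rps28 (0.9997) and Vdac1 (0.9996), with log2 fold changes of −1.16, −1.35 and −0.39. For Ldha they were Serpine2 (0.9999), Pkm (0.9997) and LOC118567843 (0.9996), with log2 fold changes of −0.61, −0.78 and −1.31. With 6 points in 2 groups, these values reflect the difference between the groups, and 996 genes for Pdk1 and 937 for Ldha had an r over 0.99.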
